A study of Mus musculus with 8 samples.

Results

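A mouse egg stops transcription before it matures and lives for days on mRNA made earlier. That mRNA is packed with RNA-binding proteins that keep it stable and silent, and it is recruited to ribosomes when its poly(A) tail is lengthened. The genes described here encode 9 such proteins: Zar1 and Zar1l (zygote arrest zinc-finger proteins that bind maternal mRNAs), Ybx2 (the germ cell Y-box protein, also called MSY2), Dazl (a germ cell protein that promotes translation during maturation), Pum2 (a Pumilio repressor), Ddx6 (an RNA helicase of processing bodies), Igf2bp2 and Igf2bp3 (KH-domain proteins that stabilise mRNA) and Eif4e1b (an oocyte form of the cap-binding factor eIF4E). They were taken by name from the 24860 Ensembl genes of the deposited files, with symbols from GENCODE M21, and all 9 were found.

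The libraries were made from oocytes arrested in the second meiotic metaphase (MII), taken from C57BL/6 females at 6 weeks of age (postnatal day 42). The groups were wild type (WT, 4 libraries) and Esrp1-/- (Esrp1_KO, 4 libraries), and the comparison asks which transcripts of the egg differ when ESRP1, an RNA-binding regulator of alternative splicing, is lacking. The labels name no allele, deleted exon or Cre driver. They describe biological replicates, each a lysate of 15 oocytes, and do not say whether a tube came from 1 animal. The p-values therefore reflect how much such tubes vary.

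Values are FPKM, reads scaled by gene length and by library size, and are relative levels within a library. In a lysate of pooled eggs, fewer eggs holding a transcript and less of it per egg cannot be told apart. The cDNA was made with Smart-seq2, which primes on poly(A) tails, and tail length was not measured. For any gene below, the members included, a change in tail length and a change in mRNA amount cannot be told apart. Library totals recovered from the values were 24910433 to 32337966 reads and overlapped between the groups. Esrp1 itself fell from 17.5 ± 1.42 to 3.30 ± 0.68 FPKM (SD, n = 4), or 18.8% of WT, with a log2 fold change of −2.12 ± 0.15 (SE, limma adjusted p = 1.32e-05). The oocyte markers were abundant in all libraries (summed level of the 10 listed 16200 to 20700 FPKM in WT and 20200 to 26900 in Esrp1_KO), led by the linker histone H1foo. Of these 10 markers 5 passed as higher in Esrp1_KO and 0 as lower, beside 13.9% higher and 23.1% lower over all genes tested. Their median log2 fold change was 0.59, against −0.06 over all genes tested. Among the 5 that passed, named after their values were seen, were the zona pellucida genes Zp1 and Zp3 (2.03 and 2.02 times WT). The 5 that did not pass included Gdf9 and H1foo (log2 fold change 0.015 and 0.42). The 5 markers that passed moved the same way as Zar1, and their part in its rise was not tested. Cumulus cell markers summed to 9.21 to 12.2 FPKM in WT and 4.0 to 5.16 in Esrp1_KO over the 10 of 12 in the files. Most of that sum came from Cyp19a1 (6.10 ± 0.71 to 1.87 ± 0.39) and Kitl (3.27 ± 0.54 to 1.83 ± 0.19), and 6 of the 10 stayed under 0.5 FPKM in every library. The share of summed FPKM on mitochondrial genes was 4.99% to 5.39% in WT and 1.03% to 1.77% in Esrp1_KO. The part of the cumulus markers and of the mitochondrial share in the results below was not tested. The scalings named there act on whole libraries and cannot tell cumulus RNA from egg RNA. WT replicate 1 stood apart with 20047 genes above 0, against 15201 to 18100 in the other 7 libraries, and replicates 1 and 4 differed from replicates 2 and 3 in both groups. Immune cell markers summed to 9.14 FPKM in Esrp1_KO replicate 3, mostly Lyz2 and Cd68 (also named after the fact), against 0.367 to 1.59 in the other 7.

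Some of the members' own mRNAs carry letters of the elements through which stored mRNAs are regulated. The 3′ UTR of the GENCODE M21 transcript with the longest coding sequence was searched on its sense strand for the cytoplasmic polyadenylation element (CPE, TTTTAT or TTTTAAT), which is read by CPEB1, and for the Pumilio binding element (PBE, TGTANATA). The PBE is the element that PUM2 itself reads. Dazl, the member that fell most, held 6 CPEs in 1852 bases and no PBE. Pum2, which rose, held 8 CPEs and 2 PBEs in 2861 bases, and Ddx6, which fell, held 7 CPEs and 2 PBEs in 4250 bases. The following CPE sites, with the element in capitals, are each the one nearest to the 3′ end of these mRNAs. They start 373, 945 and 828 bases before the annotated end, so none is close to it. They lie in GRCm38 at chr17:50279752-50279781 (minus strand), chr12:8751625-8751654 (plus strand) and chr9:44639893-44639922 (plus strand).
Dazl CPE: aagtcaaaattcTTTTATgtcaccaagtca
Pum2 CPE: tagaagggatttTTTTATtcgaggtctgca
Ddx6 CPE: aagccatgttaTTTTAATtggatacttttt

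PBE sites were present in the mRNAs of Pum2, Ddx6 and Igf2bp2. Those nearest to the 3′ end are shown with the element in capitals, at chr12:8750407-8750436 (plus strand), chr9:44637434-44637463 (plus strand) and chr16:22060384-22060413 (minus strand). They start 2164, 3287 and 1394 bases before the annotated end.
Pum2 PBE: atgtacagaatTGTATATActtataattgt
Ddx6 PBE: tgtataaacttTGTAAATAagttttttttc
Igf2bp2 PBE: ctgtacatgtaTGTACATAtcagaagggga

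The remaining members held few elements. Igf2bp2 had 2 CPEs in 1784 bases, Igf2bp3 had 1 in 2119 bases and Ybx2 had 1 in 414 bases. The Ybx2 site started 62 bases before the annotated end. The annotated 3′ UTRs of Zar1 (146 bases), Eif4e1b (73 bases) and Zar1l (14 bases) held neither element. Among 6888 tested genes with an annotated 3′ UTR (median length 982 bases), 66.1% held a CPE and 27.0% a PBE, so 6 of 9 members with a CPE and 3 of 9 with a PBE are near the shares of all genes. The 3′ UTRs of Dazl, Pum2 and Ddx6 are longer than that median, and a longer one has more room for matches. The number of matches per length was not compared with that of all genes. A match is a string of letters and not a shown binding site. Genes with a CPE and with a PBE were found both among the members that rose and among those that fell.

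The members spanned about the whole range of expression in WT eggs. Dazl was the most abundant, at 859 ± 76.7 FPKM, above 99.3% of the genes tested. Zar1 (119 ± 22.2) and Igf2bp2 (72.3 ± 4.22) followed, above 96.0% and 92.9% of the genes. Pum2 (20.3 ± 0.96) and Igf2bp3 (20.1 ± 5.22) overlapped in their libraries, as did Zar1l (10.04 ± 2.56) and Eif4e1b (8.97 ± 2.0). Ddx6 stood at 5.13 ± 0.76 FPKM, and Ybx2 was last at 0.825 ± 0.28 FPKM, above only 1.67% of the genes tested. These levels are per base of annotated exon, 3465 bases for Zar1 and 2942 for Dazl by the length search. An egg transcript of another length would shift a gene's level and its place in this order. The length used for a gene is the same in all 8 libraries. In Esrp1_KO eggs the order of the means was the same, but Dazl and Zar1 now overlapped. The ratio of Dazl to Zar1, a comparison picked after the values were seen and not tested, was 7.09, 9.15, 7.51 and 5.83 in WT replicates 1 to 4. In Esrp1_KO replicates 1 to 4 it was 0.759, 1.10, 1.58 and 1.73. Its mean went from 7.39 ± 1.37 to 1.29 ± 0.45, so the member highest in FPKM in WT came near the next one on that scale. The size of the ratio in either group depends on the lengths used.

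**Figure D1:**
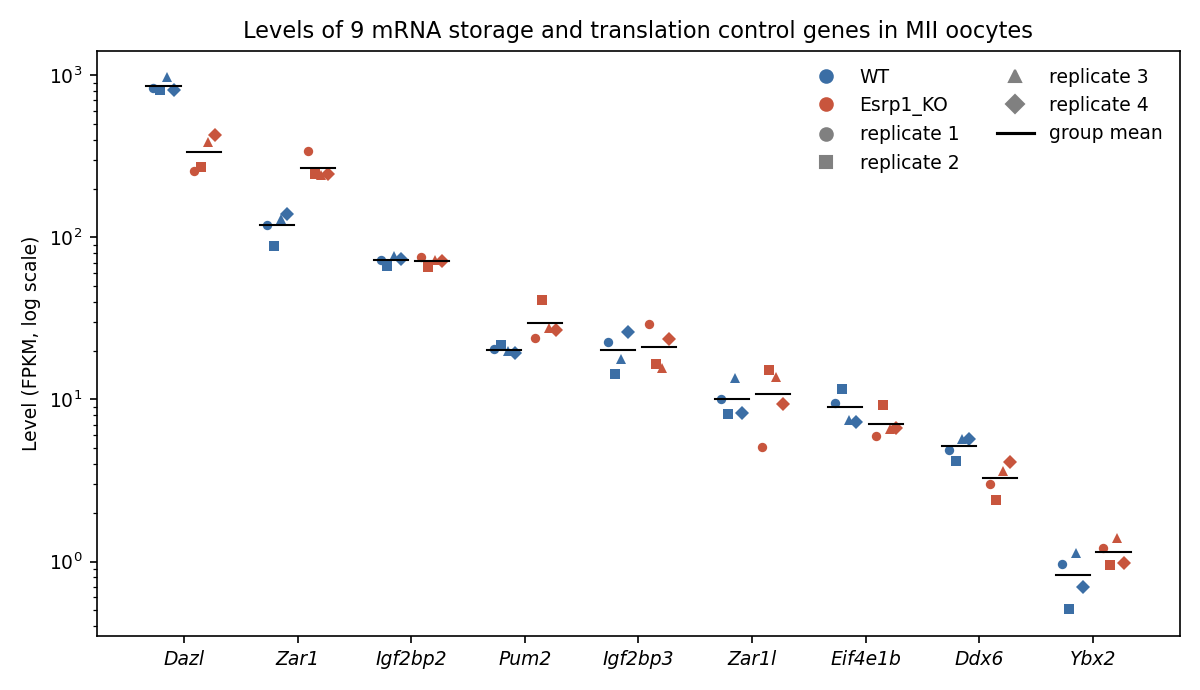
FPKM (log axis) of each of the 9 genes in the 4 WT and 4 Esrp1_KO libraries, with marker shapes for the replicate numbers and a bar at the group mean, ordered by the WT mean. Dazl drops and Zar1 climbs until their libraries overlap in Esrp1_KO, while Igf2bp2 stays near 72 FPKM in WT and 71 in Esrp1_KO.

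Of the 9 members, 8 passed the filter of a mean of 1 FPKM over the 8 libraries and were tested, among 8021 genes, on log2(FPKM + 1) with limma. At an adjusted p of 0.05, 2 were higher in Esrp1_KO (Zar1 and Pum2; 13.9% of all genes tested were higher), 2 were lower (Dazl and Ddx6; 23.1% were lower) and 4 did not pass. Over all genes tested 36.9% passed, and 36.8% had groups that did not overlap, as did these 4 members. A count of 4 in 8 is not read as a property of the set, and the genes are described singly. The members' median log2 fold change was 0.00369, against −0.06 over all genes tested. The split of all calls depended on scaling, with 62.5% of them lower as deposited, 51.1% after quantile normalization and 52.1% after median-ratio scaling.

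Zar1 (ENSMUSG00000063935, chromosome 5, 72576806 to 72581254, minus strand) rose most among the members. ZAR1 protein gathers maternal mRNAs into a cytoplasmic store. Its level was 118.5, 88.4, 129.5 and 139.9 FPKM in WT replicates 1 to 4, and 340.4, 246.6, 244.5 and 246.5 in Esrp1_KO replicates 1 to 4. Each Esrp1_KO library was above each WT library, and Esrp1_KO replicate 1 stood above the rest. The mean was 2.26 times that of WT, with a log2 fold change of 1.18 ± 0.17 (SE, limma adjusted p = 0.000696). Without Esrp1_KO replicate 1 the log2 fold change was 1.06 (adjusted p = 0.00139), and without WT replicate 1 it was 1.18 (adjusted p = 0.00266). The gene held 7662 to 14021 reads in WT and 21286 to 38146 in Esrp1_KO. Of its 50-base stretches, 28.4% also occur in other M21 genes, chiefly Gm42668, so its value can include or lose reads of those loci. The rise was past the threshold in each of 18 alternative settings, with a log2 fold change of 1.04 to 1.28.

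Zar1l (ENSMUSG00000056586, chromosome 5, 150507055 to 150518164, minus strand), its relative with an overlapping role in mouse eggs, did not pass the test. It was at 10.1, 8.17, 13.7 and 8.26 FPKM in the WT replicates and at 5.08, 15.2, 13.7 and 9.33 in the Esrp1_KO replicates. The groups overlapped, and the Esrp1_KO libraries included both the lowest and the highest value. The log2 fold change was 0.03 with a 95% interval of −0.63 to 0.69 (limma adjusted p = 0.952), which leaves room for a change of either sign. It rests on 147 to 351 reads per library.

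The balance between them was measured within each library as the log2 ratio of (FPKM + 1). Zar1 over Zar1l was 3.43, 3.28, 3.15 and 3.93 in WT and 5.81, 3.94, 4.06 and 4.58 in Esrp1_KO. All Esrp1_KO values lay above those of WT, though replicate 2 of Esrp1_KO exceeded replicate 4 of WT only slightly. On plain FPKM the order of that pair of libraries is reversed, and the groups overlap. The difference was 1.15 (exact two-sided permutation p = 0.0286, the smallest that 4 against 4 libraries can give). Adjusted over the 5 pairs of related genes compared, p was 0.0714 and did not pass 0.05. Without Esrp1_KO replicate 1, where Zar1 was highest and Zar1l lowest, the difference was 0.75. With all 8 libraries and a pseudocount of 0.1 it was 1.16 (exact permutation, adjusted p = 0.143).

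**Figure D2:**
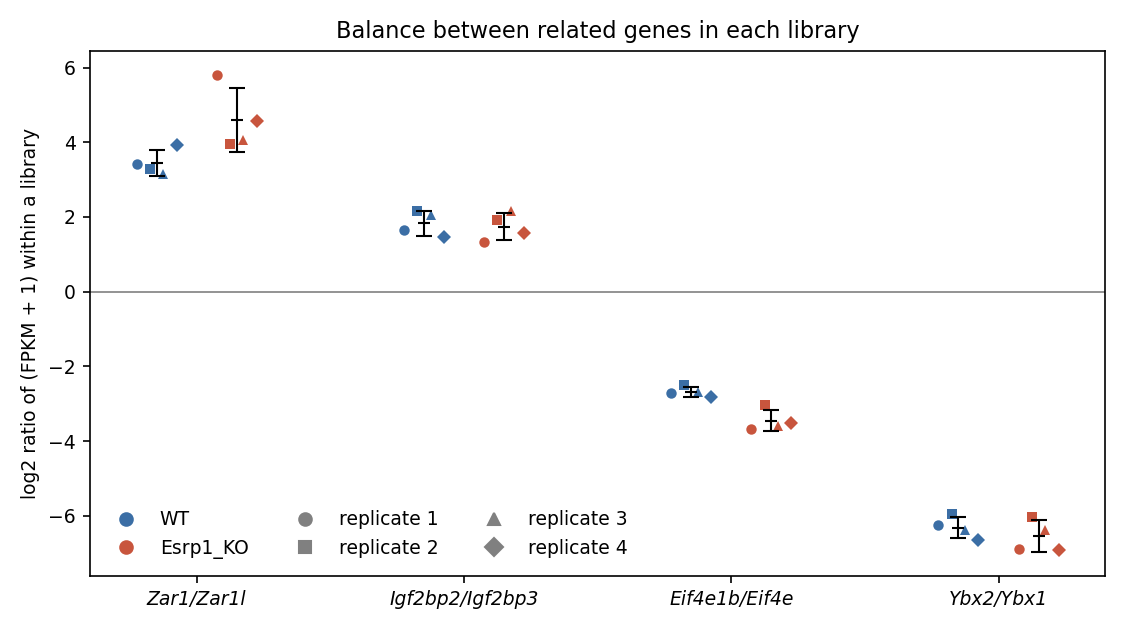
Log2 ratio of (FPKM + 1) of 4 pairs of related genes within each of the 8 libraries, with shapes for replicate numbers and black marks for the mean ± SD of 4. The groups are apart for Zar1/Zar1l (higher in Esrp1_KO) and Eif4e1b/Eif4e (lower in Esrp1_KO) and overlap for the other pairs. For Zar1/Zar1l the gap is narrow, and the groups overlap on plain FPKM.

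Dazl (ENSMUSG00000010592, chromosome 17, 50279395 to 50293636, minus strand) fell furthest. DAZL binds the 3′ UTRs of maternal mRNAs and helps to turn on their translation as the oocyte matures. WT replicates 1 to 4 had 840.0, 809, 972.5 and 815 FPKM, and Esrp1_KO replicates 1 to 4 had 258, 272, 387 and 426. The highest Esrp1_KO library lay well under the lowest WT library. Its mean in Esrp1_KO was 0.391 times that of WT, with a log2 fold change of −1.38 ± 0.17 (SE, limma adjusted p = 0.0003). The reads on the gene were 59542 to 80547 in WT and 19936 to 35416 in Esrp1_KO, counts that rest on a gene length of 2942 bases found by search, where M21 has 3820. No 50-base stretch of it occurs in another gene. The fall was past the threshold in each of 18 alternatives, with a log2 fold change of −1.51 to −1.27, and without WT replicate 1 it was −1.39 (adjusted p = 0.00129).

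Pum2 (ENSMUSG00000020594, chromosome 12, 8674134 to 8752581, plus strand) rose. PUM2 represses the mRNAs that carry PBEs. Its level was 20.6, 21.5, 19.9 and 19.3 FPKM in WT, the most even group of any member, with a coefficient of variation of 4.71%. In Esrp1_KO it was 24.0, 40.8, 27.5 and 26.9 FPKM, with replicate 2 far above the others. All Esrp1_KO values were above all WT values. The mean ratio was 1.47 and the log2 fold change 0.50 ± 0.16 (SE, limma adjusted p = 0.0352). The adjusted p rose above 0.05 when any 1 of 6 libraries was left out, up to 0.0852 without WT replicate 4. Without WT replicate 1 it was 0.0694 and without Esrp1_KO replicate 3 it was 0.0569, while without Esrp1_KO replicate 2 the log2 fold change was 0.34 and still passed.

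Ddx6 (ENSMUSG00000032097, chromosome 9, 44604892 to 44640731, plus strand) was lower in Esrp1_KO. DDX6 holds silent mRNA in granules together with the eIF4E-binding protein 4E-T and LSM14. It had 4.89, 4.16, 5.73 and 5.74 FPKM in WT and 3.01, 2.41, 3.61 and 4.13 in Esrp1_KO. The groups did not overlap, but the highest Esrp1_KO value, 4.13, came close to the lowest WT value, 4.16. The mean ratio was 0.641 and the log2 fold change −0.52 ± 0.16 (SE, limma adjusted p = 0.0275). This call was not kept under TMM (adjusted p = 0.0546), quantile (0.0723) or median-ratio scaling (0.0588), nor when any 1 of 5 libraries was left out, WT replicate 1 among them (0.054). The direction was lower in all of these settings.

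Ybx2 (ENSMUSG00000018554, chromosome 11, 69935796 to 69941605, plus strand) was scarce at the mRNA level in both groups. The Y-box protein it encodes coats maternal mRNA in growing oocytes, and protein was not measured. Its level was 0.965, 0.509, 1.13 and 0.697 FPKM in WT and 1.21, 0.958, 1.41 and 0.976 in Esrp1_KO, or 24 to 60 and 45 to 76 reads. Its mean over the 8 libraries, 0.982 FPKM, was just under the filter, so it has no main test. The groups overlapped. The related Y-box gene Ybx1 was far more abundant, at 146 ± 37.8 FPKM in WT and 204 ± 57.9 in Esrp1_KO (log2 fold change 0.47, adjusted p = 0.185). Another relative, Ybx3, rose from 13.2 ± 4.25 to 24.8 ± 6.18 FPKM (log2 fold change 0.87 ± 0.25, SE, adjusted p = 0.0225), although its libraries overlapped.

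Igf2bp2 (ENSMUSG00000033581, chromosome 16, 22059009 to 22163299, minus strand) differed between the groups by less than the spread between replicates. It encodes a protein that stabilises bound mRNA and that the egg supplies to the early embryo. Its values were 72.3, 66.6, 76.7 and 73.5 FPKM in WT and 75.5, 65.5, 72.3 and 71.8 in Esrp1_KO. The coefficient of variation was 5.83% in WT and 5.91% in Esrp1_KO, and both groups covered the same span. The log2 fold change was −0.02 with a 95% interval of −0.26 to 0.22 (limma adjusted p = 0.904), turning to 0.065 with TMM and to 0.082 with median-ratio scaling. A change within that interval is not excluded by these values.

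Igf2bp3 (ENSMUSG00000029814, chromosome 6, 49085223 to 49214957, minus strand) varied with the replicate numbers within both groups. It was at 22.5, 14.3, 17.7 and 26.1 FPKM in WT and at 29.3, 16.5, 15.5 and 23.5 in Esrp1_KO. Replicates 1 and 4 were higher than replicates 2 and 3 in each group, the same division that separates the libraries at large. The log2 fold change between genotypes was 0.06 with a 95% interval of −0.47 to 0.59 (limma adjusted p = 0.864). The log2 ratio of Igf2bp2 to Igf2bp3 was 1.83 ± 0.33 in WT and 1.74 ± 0.36 in Esrp1_KO (difference −0.08, exact permutation p = 0.686), a sign that turned when WT replicate 2 or Esrp1_KO replicate 1 was left out. Of the exon bases of Igf2bp3, 18.7% are overlapped by Malsu1 on the opposite strand, whose reads cannot be told apart without strand information. The third gene of the family, Igf2bp1, was under the filter at 0.226 ± 0.34 and 0.289 ± 0.11 FPKM.

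Eif4e1b (ENSMUSG00000074895, chromosome 13, 54783998 to 54788459, plus strand) did not pass the test on its own. The protein belongs to the cap-binding family and is found on stored maternal mRNA. Its level was 9.5, 11.6, 7.5 and 7.3 FPKM in WT and 5.91, 9.20, 6.56 and 6.63 in Esrp1_KO. Replicate 2 was the highest of each group, and the groups overlapped. The log2 fold change was −0.30 with a 95% interval of −0.69 to 0.10 (limma adjusted p = 0.214). Without WT replicate 2, the highest of its group, it was −0.18, and without Esrp1_KO replicate 2 it was −0.42. Neither passed the threshold.

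Eif4e, the general cap-binding factor, rose. It was at 67.9, 69.97, 54.0 and 57.3 FPKM in WT and 87.6, 81.9, 89.5 and 86.6 in Esrp1_KO, without overlap, with a log2 fold change of 0.47 ± 0.12 (SE, limma adjusted p = 0.0123). The log2 ratio of Eif4e1b to Eif4e was −2.71, −2.50, −2.69 and −2.81 in WT and −3.68, −3.02, −3.58 and −3.52 in Esrp1_KO. All Esrp1_KO libraries were lower, by 0.77 in the mean (exact two-sided permutation p = 0.0286, adjusted over the 5 pairs 0.0714). On the FPKM scale, Eif4e1b was 0.143 ± 0.016 of Eif4e in WT and 0.0824 ± 0.020 in Esrp1_KO. Eif4e3, a further family member, stood at 75.1 ± 11 and 66.2 ± 8.55 FPKM (log2 fold change −0.18, adjusted p = 0.383), and Eif4e2 was under the filter.

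**Figure D3:**
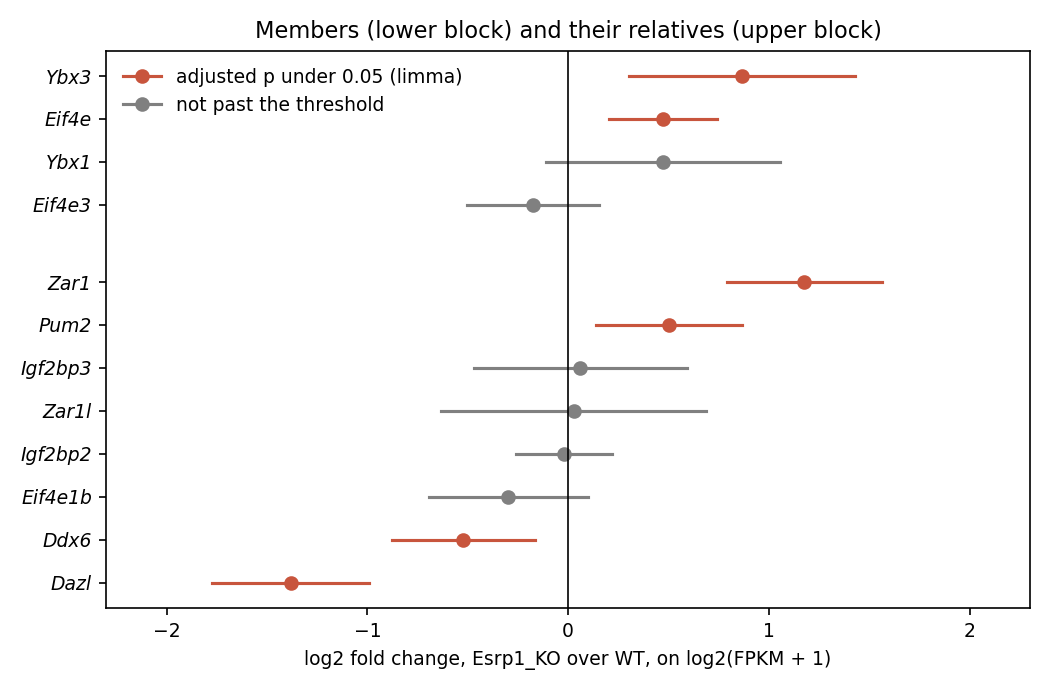
Log2 fold change of Esrp1_KO over WT on log2(FPKM + 1), with 95% intervals from limma over 4 libraries per group, for the 8 tested members (lower block) and 4 of the tested relatives (upper block). Filled red points passed an adjusted p of 0.05: Zar1, Pum2, Ybx3 and Eif4e on the higher side and Dazl and Ddx6 on the lower side.

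Of the 8 relatives listed, 5 were tested, of which 2 rose (Ybx3 and Eif4e), none fell and 3 did not pass, Ybx1 and Eif4e3 among them, where 13.9% of all genes tested were higher and 23.1% lower. The median log2 fold change was 0.47, against −0.06 over all genes. Boll, the DAZ-family relative of Dazl, was under the filter at 0.11 ± 0.11 and 0.021 ± 0.015 FPKM.

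The mRNAs of proteins that work with the members in storing mRNA moved in both directions. Of 33 listed, 26 were tested, 5 rose, 2 fell and 19 did not pass, so 7 of 26 were called, against 36.9% of all genes tested. The list's median was 0.03 on the log2 scale (all genes −0.06). Fmr1, the fragile X repressor, rose from 2.39 ± 0.65 to 7.82 ± 0.41 FPKM (log2 fold change 1.40 ± 0.15, SE, limma adjusted p = 0.000134). Cpeb1, the reader of the CPE, rose from 71.8 ± 12.1 to 150.5 ± 31.5 FPKM. Its libraries were at 84.4, 55.7, 71.1 and 75.9 FPKM in WT and at 193.7, 136.1, 120.5 and 151.9 in Esrp1_KO, apart from each other (log2 fold change 1.05 ± 0.18, limma adjusted p = 0.00146). Also higher were Rbpms2, an RNA-binding protein of vertebrate oocyte granules (32.8 ± 5.08 to 60.4 ± 13.3 FPKM), and Elavl2 (26.1 ± 0.68 to 38.1 ± 3.55), an AU-rich element binder. The fifth was Elavl1 (6.97 ± 0.79 to 11.5 ± 2.22), while Tnrc6b, a scaffold of miRNA silencing (8.92 ± 0.46 to 6.77 ± 0.27), and Atxn2 (3.48 ± 0.59 to 2.34 ± 0.12) fell. Elavl1, Tnrc6b and Atxn2, and the partners of DDX6 that follow, were named after their values were seen. Eif4enif1, which encodes 4E-T, was at 83.8 ± 9.13 and 71.4 ± 13.4 FPKM (adjusted p = 0.249), Lsm14a at 59.0 ± 4.09 and 53.5 ± 0.92 (0.325) and Lsm14b at 28.2 ± 7.84 and 20.9 ± 5.94 (0.249). None of these DDX6 partners passed the limma test.

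Of 22 listed genes of cap-dependent initiation and poly(A) binding, 21 were in the files and 18 were tested. In Esrp1_KO, 3 rose, 2 fell and 13 did not pass, so 5 of 18 were called, against 36.9% of all genes. The list's median was 0.05 on the log2 scale. Mknk2, a kinase that phosphorylates eIF4E, rose from 0.59 ± 0.17 to 2.28 ± 0.64 FPKM (log2 fold change 1.03 ± 0.16, SE, limma adjusted p = 0.00109). Its WT mean is under the filter of 1 FPKM, so it was tested only because it is high in Esrp1_KO, and its call lends the count no support. Its relative Mknk1, which acts on the same site, fell from 29.1 ± 5.33 to 18.3 ± 5.09 FPKM (log2 fold change −0.67, adjusted p = 0.0316). The Mknk1 libraries of the 2 groups overlapped. Pabpc1l, the embryonic poly(A)-binding protein, was even in WT, at 6.46, 6.46, 6.02 and 6.52 FPKM. In Esrp1_KO it reached 24.4, 12.3, 11.1 and 14.1, all above WT (log2 fold change 1.10 ± 0.21, adjusted p = 0.00315). Rps6kb1, the S6 kinase, fell from 13.4 ± 1.34 to 9.14 ± 0.72 FPKM (adjusted p = 0.00852). The remaining rise, named after its value was seen, was Eif4a2 (128.5 ± 11.6 to 160.9 ± 9.57, adjusted p = 0.0448).

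The mRNAs that DAZL is described to bind moved in both directions. Of 6 listed and tested, 2 rose, 3 fell and 1, Ddx4, did not pass, beside 13.9% higher and 23.1% lower over all genes. The list's median was −0.17 on the log2 scale. Tpx2, a spindle assembly factor and a known target of DAZL, rose from 107 ± 3.23 to 149 ± 6.61 FPKM (log2 fold change 0.47 ± 0.10, SE, limma adjusted p = 0.00492). Tex19.1 fell from 21.4 ± 2.76 to 11.5 ± 3.34 FPKM (adjusted p = 0.00588), and the checkpoint kinase gene Bub1b from 254.8 ± 24.6 to 175.0 ± 19.4 (0.00786). The cytokine gene Il7 fell from 60.1 ± 5.60 to 41.6 ± 4.88 FPKM (0.0102). Sycp3, named after its value was seen, was higher (4.97 ± 2.88 to 17.1 ± 14.5 FPKM, adjusted p = 0.0483), but Chpt1 on the opposite strand overlaps 52.2% of its exon bases. The Sycp3 libraries of the 2 groups overlapped, and Esrp1_KO replicate 2, at 38.1 FPKM, was far above the rest. RNA levels were measured here and not translation.

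Dormant mRNAs wait untranslated until maturation. Of 13 listed and tested, 1 rose, 5 fell and 7 did not pass, beside 13.9% higher and 23.1% lower over all genes. The list's median was −0.19 on the log2 scale. Tpx2, Bub1b and Tex19.1 are on both lists. Ccnb1, cyclin B1, had 885.9, 824.7, 772.9 and 830.1 FPKM in WT and 391.5, 322.3, 439.8 and 479.0 in Esrp1_KO, without overlap (log2 fold change −1.03 ± 0.14, SE, limma adjusted p = 0.000384). Of its 50-base stretches, 23.4% recur in other genes, chiefly the pseudogene Ccnb1-ps. Mos, the kinase that holds the egg in metaphase, fell from 203.8 ± 34.9 to 107.8 ± 15.7 FPKM (log2 fold change −0.91, adjusted p = 0.00175). The fifth to fall, Dcp2, a decapping enzyme named after its value was seen, went from 17.6 ± 3.32 to 11.01 ± 2.07 FPKM (adjusted p = 0.0165). Smart-seq2 primes on poly(A) tails, and tail length was not measured. As for the members, a shorter tail and less mRNA cannot be told apart in these values.

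**Figure D4:**
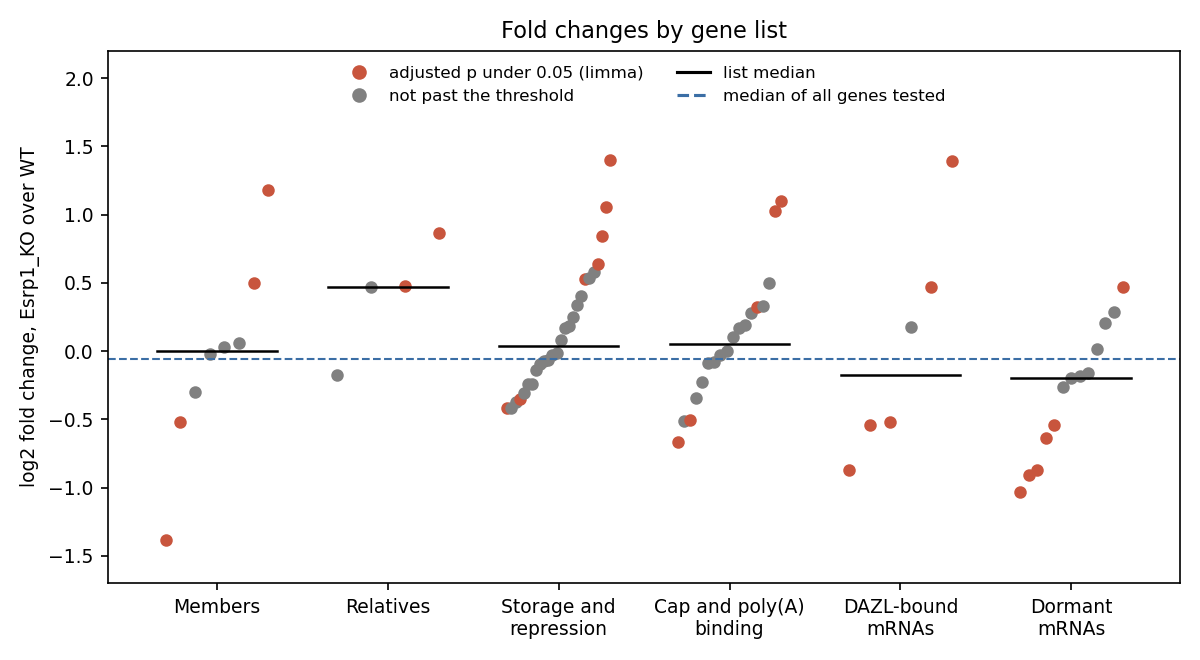
Log2 fold change of Esrp1_KO over WT for the tested genes of 6 lists that are reported here, ordered by value within a list, with red points past an adjusted p of 0.05 (limma), a black bar at the list median and a dashed line at −0.06, the median of all genes tested. Each list except the relatives has red points on both sides of 0.

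The genes whose pattern over the 8 libraries was most like that of Zar1 and of Dazl were found by Pearson's r of log2(FPKM + 1), given as a description. The 8 points share library and genotype, so any gene that differs strongly between the groups gives a high value. For Zar1 they were Smim14 (r = 0.996), the mitochondrial stomatin Stoml2 (0.995) and the glutamate receptor gene Grm2 (0.990). For Dazl they were the growth factor gene Fgf10 (0.998), the endosomal GTPase Rab9 (0.989) and the actin-associated Rai14 (0.989). Stoml2 and Grm2 had their highest level in Esrp1_KO replicate 1, as Zar1 did.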

How the data were processed

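The authors deposited 1 FPKM value per Ensembl gene and library, per the file headers. The genome build was GRCm38, per the submitters' processing notes. No aligner, counting tool or annotation release was stated in the sources used here. Per the labels' protocols, eggs were lysed directly and cDNA was made with Smart-seq2, which does not mark strand. Symbols came from GENCODE M21 (24812 of 24860 genes).

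FPKM multiplied by M21 exon length and a per-library total gave whole reads, within 0.02 of a read, for 90.0% to 90.6% of values. Exon lengths gave reads for 22629 genes and a search over lengths for 936 more. An interval on counting error would understate the error, since PCR duplicates carry no mark.

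The limma fit (version 3.58.1, R 4.3.3) used log2(FPKM + 1) of the 8021 genes whose mean over the libraries reached 1 FPKM. Genotype was its single term and the variance prior followed expression level. Its two-sided p-values were adjusted by Benjamini-Hochberg across these genes. The pseudocount of 1 understates changes of low genes. Ratios of related genes were compared by exact permutation over 70 arrangements, adjusted over 5 pairs. 1 gene and the pair that holds it are not reported here. Named genes are all members, the relatives reported, the 4 with the smallest adjusted p of each other list, the highest marker genes, and the 3 genes most like the top member in each direction. The members and lists were chosen with earlier results of these data known.

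Same-numbered libraries deviated together (correlations over genes of 0.262, 0.317, 0.226 and 0.261 for replicates 1 to 4), and the numbers from the labels were treated as pairs in an alternative. Some unlike numbers correlated as much: 0.402 for WT replicate 4 with Esrp1_KO replicate 1 and 0.252 for WT 3 with Esrp1_KO 2. WT 2 with Esrp1_KO 3 was positive but lower, at 0.176. The labels name no litter or day that a number would stand for. Other alternatives changed the pseudocount, filter, scaling (TMM computed without weights), libraries and unit (limma's voom on recovered reads).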

Additional observations from a re-analysis of the deposited data

Results flagged for a closer look

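Within each group of 4 libraries, the library farthest from the rest was compared with the others for the named genes and 4 ratios, 82 groups in all. In 6 of them the gap exceeded Dixon's 95% limit, where chance alone gives about 1 in 20. The 6 are not independent, since Stoml2 and Grm2 were picked for their likeness to Zar1.

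In Esrp1_KO replicate 1, Zar1 was at 340.4 FPKM against 244 to 247 in the other three libraries, Stoml2 at 110.1 FPKM against 83.4 to 85.5, and Grm2 at 199 FPKM against 121 to 133. Igf2bp1 was at 0.736 FPKM in WT replicate 1 and at 0.044 to 0.0661 in the other WT libraries. Eif4e3 was lowest in WT replicate 2, at 58.7 FPKM against 79.1 to 81.8. In WT replicate 3, Pabpc1l was at 6.02 FPKM against 6.46 to 6.52.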

How the results depend on the processing

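Zar1 and Dazl kept their direction and their call in all 18 alternatives, Pum2 kept its call in 9 of 18 and Ddx6 in 6 of 17, both always with the same sign. The number of members called higher was 1 without a filter and in either pair of replicates by itself (1 and 4, or 2 and 3), and 1 to 2 when a library was left out. The number called lower was 1 in those settings, with a filter of 5 FPKM (where Ddx6 was not tested) and under TMM, quantile and median-ratio scaling, and 1 to 2 when a library was left out. Over all genes 1664 passed with the filter of 5 FPKM, where fewer genes are tested, and 1448 with replicates 2 and 3 alone, where fewer libraries are used. Leaving out 1 library gave 2383 to 2866. Beyond these, the cause of the lost calls was not tested.

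With the replicate block 3406 genes passed. It changed no member's call (Pum2 adjusted p = 0.0211, Ddx6 0.00937, limma). None of the 5 ratios passed in any setting after adjustment, but some settings could not have given a pass. With the numbers as pairs the smallest exact p was 0.125, the smallest 4 pairs allow. With replicates 1 and 4 or 2 and 3 alone it was 0.333, also the smallest possible. In the main setting Zar1/Zar1l and Eif4e1b/Eif4e were both at the smallest exact p, 0.0286, which still adjusted to 0.0714.

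The sign turned for 3 uncalled members. Zar1l was at −0.36 (log2) with replicates 1 and 4 alone and at −0.012 by voom, Igf2bp2 at 0.065 with TMM, 0.082 with median-ratio scaling and 0.015 with replicates 1 and 4 alone. Leaving out 1 library, Zar1l ranged from −0.16 to 0.31, Igf2bp2 from −0.058 to 0.019, Igf2bp3 from −0.10 to 0.19 and the Igf2bp2 to Igf2bp3 ratio from −0.22 to 0.055. Quantile, TMM and median-ratio scaling moved the median of all genes from −0.06 to between 0.01 and 0.03. Ybx2 (24 to 76 reads) and Zar1l (147 to 351) are the members whose depth limits the comparison most.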
